A study of Rattus norvegicus with 6 samples.

Results

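Dbp and Nr1d2, 2 of the rhythmic transcription factor genes that the circadian clock drives, read slightly higher in the medial prefrontal cortex (mPFC) of rats 90 min after lysergic acid diethylamide (LSD) than after saline (1.21- and 1.26-fold in the 2 probe sets of Dbp, 1.195-fold in Nr1d2, none past the adjusted threshold), while Tef, Hlf, Nr1d1, Bmal1, Per2, Bhlhe40 and Bhlhe41 had arrays that overlapped between the groups. The genes described here are 10 clock transcription factors, namely Dbp, Tef, Hlf, Nr1d1, Nr1d2, Bmal1, Per2, Bhlhe40, Bhlhe41 and Nfil3. A probe set, the group of short probes that reads 1 transcript on the array, was taken where its annotation names exactly 1 of these genes and no other. That gave 14 probe sets of 8740, which cover 9 of the 10 genes and 9 of the 4736 genes with such a probe set. Nfil3, a bZIP repressor that competes with DBP for its sites, had no such probe set and has no value here. The set was chosen by its place in the clock but with the LSD minus Saline differences of these same arrays already known, so the values below are a description of the genes and support no claim about them as a set.

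The LSD group consists of 3 arrays from the mPFC of male Sprague-Dawley rats killed 90 min after an intraperitoneal injection of 1.0 mg/kg LSD, as (+)-LSD tartrate, a hallucinogen that acts on serotonin receptors. The Saline group consists of 3 arrays from rats of the same sex and strain injected with saline alongside them. Neither age, genotype nor clock time of injection is given in the sources used here beyond a light/dark cycle with food and water freely available, so the phase of the clock at dissection is not known. Per the labels, tissue of 4 rats per group was pooled before RNA extraction. The study's own text instead describes each array as an independent pool from a pair of rats. These accounts differ on whether the arrays of a group are separate animals, so a p-value here covers array-to-array spread alone, part of which may be technical. A free-text note in the labels names the opposite treatment from the titles and the treatment field. Groups follow the titles, and every difference given here would change sign under the note.

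In mammals the clock is a loop of transcription factors: BMAL1 and CLOCK bind E-boxes and switch on the genes of their own repressors, among them Per2, Bhlhe40 and Bhlhe41. The same pair also drives Nr1d1 and Nr1d2, whose REV-ERB proteins repress Bmal1 through ROR elements (ROREs), and the PAR bZIP genes Dbp, Tef and Hlf, whose proteins carry the rhythm to downstream genes through D-boxes. In cortex these genes cycle with the time of day, and Per2 also responds to cAMP and glucocorticoid signals.

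To show these wiring elements, the 250 bases before each RefSeq transcription start (GRCr8) were searched on both strands for the E-box CACGTG, the E'-box CACGTT, the D-box TTANGTAA, the CRE TGACGTCA, the site of CREB, and the RORE. RefSeq gave 10 windows for 9 of the 10 genes, 2 of them for Nr1d1. Hlf was not matched. The E-box lay in 4 of these 10 windows, against 5.59% of all 33469 windows of this length, the E'-box in 2 (4.07% of all), the D-box in 1 (2.04%), the RORE in 1 (0.317%) and the CRE in none (1.59%). A match is a description of letters and not a bound site. The sites found follow on the strand of the gene, with the motif in capitals, and are printed because they are of the kinds through which clock genes are known to regulate one another:
Tef, E-box, chr7:115206617-115206646, plus strand: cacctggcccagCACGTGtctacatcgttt
Nr1d1, E-box, chr10:84229628-84229657, minus strand: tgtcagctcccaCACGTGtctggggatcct
Nr1d1, E'-box read on the opposite strand, chr10:84231969-84231998, minus strand: cgcatagagctcAACGTGcccgctgctgga
Bmal1, RORE, chr1:176766296-176766327, plus strand: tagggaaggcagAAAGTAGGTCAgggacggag
Per2, E'-box, chr9:99497038-99497067, minus strand: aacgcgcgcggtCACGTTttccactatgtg
Per2, D-box, chr9:99497166-99497197, minus strand: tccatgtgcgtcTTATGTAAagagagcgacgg
Bhlhe40, E-box, chr4:143174218-143174247, plus strand: agcgttgtccaaCACGTGagactcatgtga
Bhlhe41, E-box, chr4:180569386-180569415, minus strand: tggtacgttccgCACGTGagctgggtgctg
The RORE of Bmal1 began 20 bases before the start site, the D-box of Per2 192 bases and its E'-box 62 bases before it.

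Values are log2 RMA expression levels, so that a difference of 1 is a doubling, and the level of a probe set is compared between arrays. Percentiles of level tell only how bright a probe set was among all of them, since probes differ in brightness, and are not amounts of RNA. The 6 arrays had medians between 5.43 and 5.45 and correlated with one another at r between 0.984 and 0.996 over all probe sets. Saline 1 stood apart, where 78 probe sets lay over 1 log2 unit away from the average of the other 5, against 2 to 21 for any other array. Cortical markers varied widely in brightness. The 5 measured markers of excitatory neurons lay between percentile 14.7 (Rorb) and percentile 99.4 (Nrgn), with Slc17a7 at 36.9, and the 8 of inhibitory neurons between percentile 29.1 (Vip) and percentile 96.8 (Sst), with Gad2 at 36.4. Nrgn read 11.05 ± 0.06 in LSD and 10.99 ± 0.01 in Saline, and Sst 9.47 ± 0.08 in LSD and 9.50 ± 0.02 in Saline (SD, n = 3 each). Over markers of striatal medium spiny neurons, 7 of the 8 measured genes read lower in LSD, their mean level spanning 6.25 to 6.36 over the LSD arrays and 6.49 to 6.51 over the Saline arrays. All 5 measured choroid plexus markers read lower as well, with a mean level of 7.31 to 7.43 in LSD and 7.59 to 7.64 in Saline. For actin, the 3′ minus 5′ probe set level, a sign of RNA length, was 0.64 to 0.71 in LSD and 0.75 to 0.83 in Saline, while that of Gapdh overlapped between the groups. The part of the marker levels, of RNA length and of Saline 1 in the results below was not tested, apart from the values given without Saline 1. In tissue RNA, fewer cells of a type and less RNA per cell cannot be told apart.

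Dbp, the first-named PAR bZIP activator and one of the strongest cycling transcripts known, was higher on every LSD array than on every Saline array in both of its probe sets. The brighter one, J03179_g_at, read 8.48, 8.48 and 8.47 on the LSD arrays and 8.16, 8.31 and 8.15 on the Saline arrays. The 3 LSD arrays lay almost on top of each other (SD 0.005), and the nearest Saline array, Saline 2, remained below them. The difference was 0.28 ± 0.08 (SE) log2 units, or 1.21-fold (95% interval 1.06 to 1.38), with an adjusted p of 0.981 in limma. The other probe set, J03179_at, read 6.75, 6.59 and 6.58 in LSD and 6.26, 6.45 and 6.21 in Saline. Here LSD 1 was the highest array, and Saline 2 was again the highest of its group. The difference was 0.33 ± 0.10 log2 units, or 1.26-fold (1.07 to 1.47). Both probe sets come from the same transcript sequence and followed each other over the arrays (r = 0.96, n = 6 arrays), so they are not independent readings of Dbp.

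The promoter window of Dbp is shown because this gene had the greatest difference of the 9, and it held none of the 5 motifs searched, which says only that those letters are not in these 250 bases (GRCr8, chr1:105312006-105312255, plus strand):
Dbp: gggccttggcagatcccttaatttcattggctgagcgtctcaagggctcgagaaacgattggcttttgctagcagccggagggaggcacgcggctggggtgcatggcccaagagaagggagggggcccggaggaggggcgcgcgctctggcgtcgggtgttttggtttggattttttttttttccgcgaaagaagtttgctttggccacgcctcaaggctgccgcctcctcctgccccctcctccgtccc

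Tef, the thyrotroph embryonic factor that binds the same D-boxes as DBP, did not share the pattern. It read 6.36, 6.50 and 6.62 in LSD and 6.43, 6.56 and 6.44 in Saline, so the LSD arrays spanned the Saline arrays, with LSD 1 the lowest and LSD 3 the highest of the 6 arrays. The difference was 0.02 ± 0.10 log2 units (95% interval -0.20 to 0.24).

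Hlf, hepatic leukaemia factor and the third PAR bZIP activator, read lower in LSD by a small margin in all 3 of its probe sets, with overlapping arrays in each of them. The brightest, S79820_at, read 7.04, 7.16 and 7.18 in LSD and 7.21, 7.21 and 7.07 in Saline, a difference of -0.04 ± 0.09 log2 units. The dim S79820_g_at read 3.76, 3.85 and 4.11 in LSD and 4.15, 4.08 and 4.01 in Saline, a difference of -0.17 ± 0.11 that rested on LSD 1 and LSD 2. This was the most negative difference among the 14 probe sets, and its 95% interval, -0.42 to 0.08, included 0. S79817mRNA_at read 4.67 to 4.71 in LSD and 4.69 to 4.78 in Saline, a difference of -0.07 ± 0.08.

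**Figure D1:**
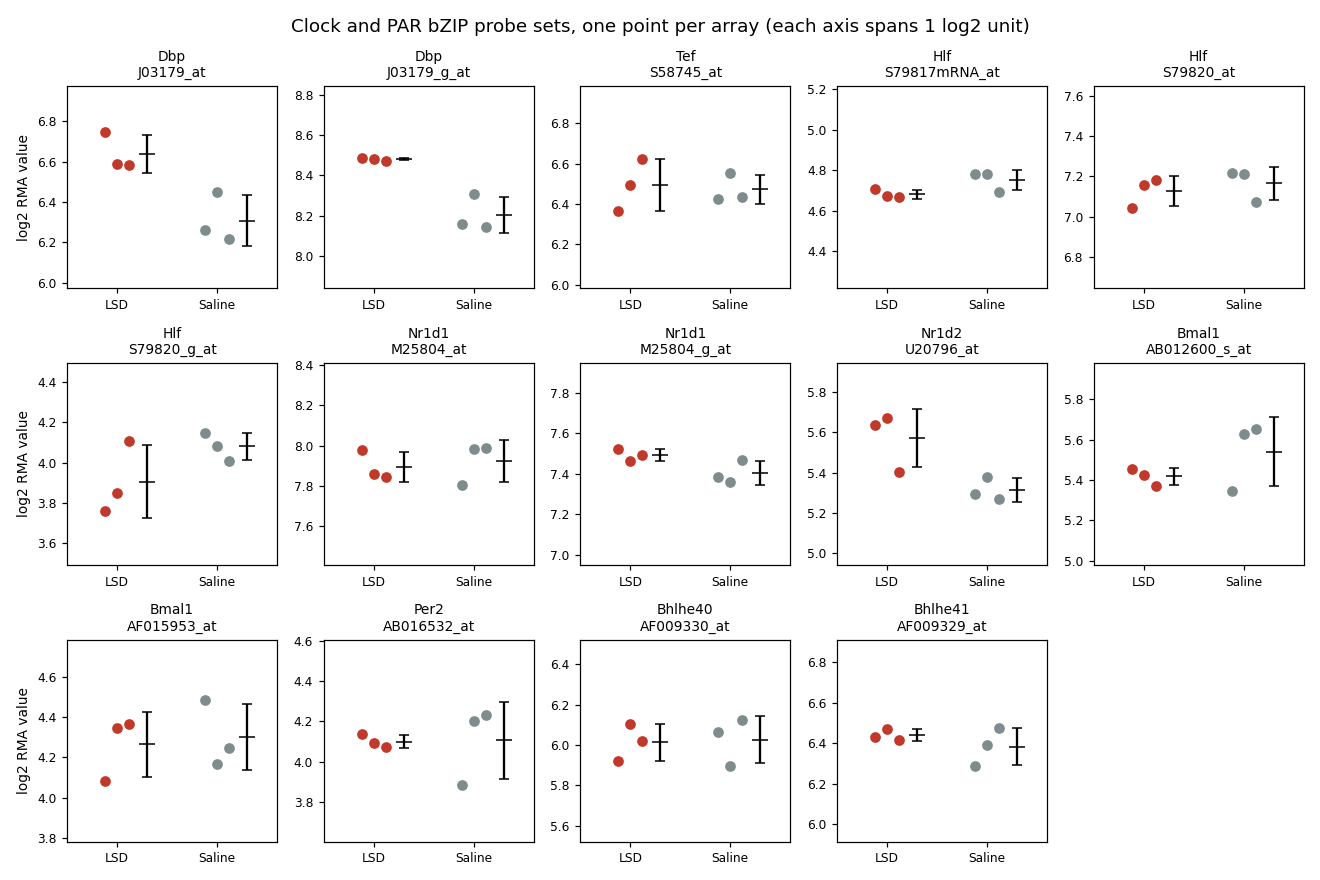
Log2 RMA level (vertical axes) of the 14 probe sets on the 3 LSD arrays (left in each panel) and the 3 Saline arrays (right). Points are arrays, bars show the group mean ± SD, and each axis spans 1 log2 unit. The LSD points lie above all Saline points in the panels of Dbp (8.47 to 8.48 against 8.15 to 8.31 for J03179_g_at) and Nr1d2 (5.41 to 5.67 against 5.27 to 5.38), and the groups overlap in the other 11. Of all probe sets, 10.4% had groups without overlap, and 6.58% did with LSD higher.

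Nr1d2 and Nr1d1 encode REV-ERBβ and REV-ERBα, haem-binding receptors that silence genes with a RORE. Nr1d2 read 5.64, 5.67 and 5.41 in LSD and 5.29, 5.38 and 5.27 in Saline. The groups did not overlap, although LSD 3 lay only just above Saline 2 and the separation was carried by LSD 1 and LSD 2. The difference was 0.26 ± 0.10 log2 units, or 1.195-fold (95% interval 1.02 to 1.40), with an adjusted p of 0.981. Its promoter window, shown because it is the other gene with separated groups, also held none of the 5 motifs (GRCr8, chr15:9954784-9955033, plus strand):
Nr1d2: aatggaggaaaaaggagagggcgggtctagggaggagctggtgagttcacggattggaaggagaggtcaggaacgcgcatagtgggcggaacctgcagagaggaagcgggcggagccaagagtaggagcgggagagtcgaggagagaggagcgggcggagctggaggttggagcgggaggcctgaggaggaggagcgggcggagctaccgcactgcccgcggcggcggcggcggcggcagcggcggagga

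Nr1d1 did not follow Nr1d2, and its probe sets did not follow each other (r = 0.16 over 6 arrays). M25804_at read 7.98, 7.86 and 7.84 in LSD and 7.80, 7.98 and 7.99 in Saline, a difference of -0.03 ± 0.09 log2 units. In that probe set Saline 1 was the lowest of all 6 arrays and Saline 3 the highest. M25804_g_at read 7.52, 7.46 and 7.49 in LSD and 7.38, 7.36 and 7.47 in Saline, a difference of 0.09 ± 0.08, and the groups overlapped only because Saline 3 lay just above LSD 2. The Nr1d1 gene overlaps Thra, the thyroid hormone receptor α gene, which runs on the opposite strand. The brightest probe set of Thra, M31174_at, read 9.17, 9.19 and 9.18 in LSD and 8.65, 9.37 and 9.43 in Saline, so that Saline 1 was lowest there as well.

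Bmal1, the E-box activator at the head of the loop and a target of the REV-ERBs, read lower in LSD by less than the spread of its arrays. AB012600_s_at read 5.45, 5.43 and 5.37 in LSD and 5.34, 5.63 and 5.65 in Saline, a difference of -0.12 ± 0.10 log2 units (95% interval -0.36 to 0.12). Saline 2 and Saline 3 lay above the LSD arrays and Saline 1 lay below them, and without Saline 1 the difference was -0.22. The dimmer AF015953_at read 4.08, 4.35 and 4.36 in LSD and 4.48, 4.17 and 4.25 in Saline, a difference of -0.04 ± 0.12, and here Saline 1 was the highest array. The 2 probe sets of Bmal1 thus ran in opposite directions over the arrays (r = -0.60).

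The repressors that act on E-boxes showed small differences with overlapping arrays. Per2, the period protein that feeds back on BMAL1 and CLOCK, read 4.14, 4.09 and 4.07 in LSD and 3.89, 4.20 and 4.23 in Saline. The LSD arrays lay between Saline 1 and the other two Saline arrays, and the difference was -0.01 ± 0.11 log2 units (95% interval -0.26 to 0.24) in a probe set only at percentile 24.5 of the level of all probe sets. Bhlhe40, which encodes DEC1, read 5.92, 6.10 and 6.02 in LSD and 6.06, 5.90 and 6.12 in Saline, a difference of -0.01 ± 0.10. Bhlhe41, which encodes DEC2, read 6.43, 6.47 and 6.42 in LSD and 6.29, 6.39 and 6.47 in Saline, a difference of 0.06 ± 0.08. For these 3 genes the intervals reached no further than 1.191-fold higher and 1.195-fold lower in LSD.

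**Figure D2:**
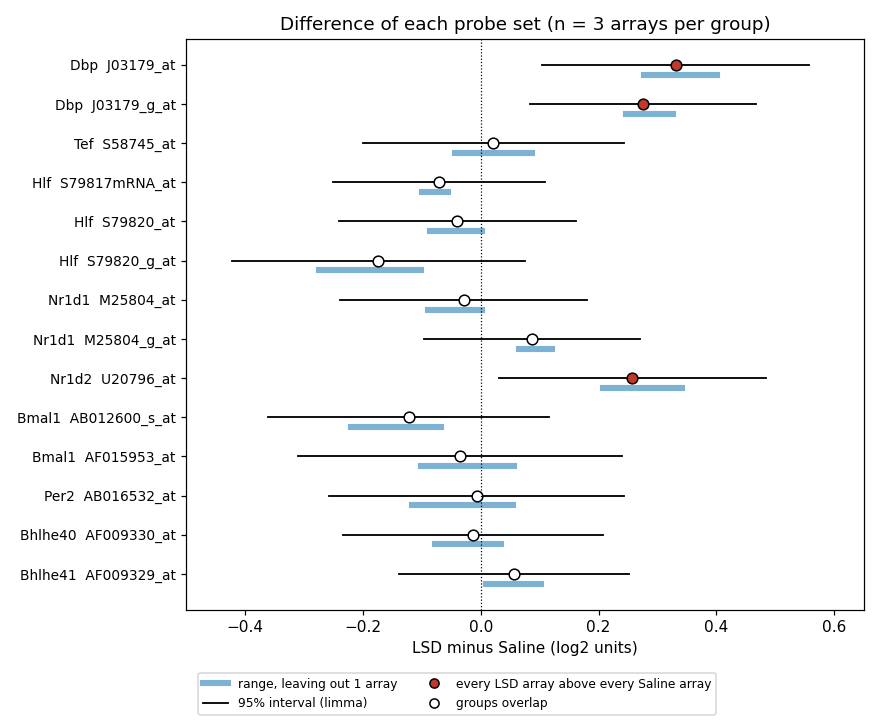
LSD minus Saline difference in log2 units (horizontal axis) of each probe set, with its 95% interval from limma (black line, n = 3 arrays per group) and the range of the difference when 1 array is left out (blue bar). The intervals of both Dbp probe sets and of Nr1d2 lie above 0 before any adjustment for the 8740 probe sets tested, and the other 11 include 0. Of all probe sets, 3.92% stood at an unadjusted p under 0.05 in limma, and 2.4% did with LSD higher.

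Over all 14 probe sets, 6 read higher and 8 lower in LSD, with a median difference of -0.01 log2 units, against 0.00451 over all probe sets, of which 51.4% read higher. The median size of the difference was 0.0635, and it was 0.0797 over all probe sets. In the fit across all probe sets, 0 of the 14 passed an adjusted p of 0.05 (the lowest was 0.981 in limma), where 0.0686% of all probe sets passed. At an unadjusted p under 0.05 stood 3 of them, the Dbp pair and Nr1d2, all higher in LSD, where 3.92% of all probe sets did and 2.4% did with LSD higher. The groups did not overlap in the same 3, against 10.4% of all probe sets and 6.58% with LSD higher. Since the genes were chosen with these differences known, and 2 of the 3 probe sets share 1 transcript, nothing is read from these counts. Across the set, the 95% intervals reached at most 1.47-fold higher, in Dbp, and 1.34-fold lower, in Hlf.

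The difference varied little over the LSD arrays for the brighter probe set of Dbp. Measured from the Saline mean, J03179_g_at stood 0.28, 0.28 and 0.27 log2 units higher on the LSD arrays, while the Saline arrays lay between -0.06 and 0.10. J03179_at varied more, at 0.44, 0.28 and 0.27 on the LSD arrays, with the Saline arrays between -0.09 and 0.14. Nr1d2 stood 0.32, 0.36 and 0.09 higher on the LSD arrays, with the Saline arrays between -0.04 and 0.07. When 1 array was left out in turn, the difference of J03179_g_at ran from 0.25 to 0.33, that of J03179_at from 0.28 to 0.40 and that of Nr1d2 from 0.21 to 0.34. By contrast, the sign of Tef, Per2, Bhlhe40, 1 probe set of Hlf, 1 of Nr1d1 and 1 of Bmal1 turned with at least 1 array left out.

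Nr1d1 M25804_at, Bmal1 AB012600_s_at and Per2 AB016532_at followed one another over the arrays, while their groups overlapped. They were picked for this after their values were seen, among 91 pairs of the 14 probe sets. Each was lowest on Saline 1 and highest on Saline 3, with Saline 2 close below it. Over the 6 arrays, r was 0.86 for Nr1d1 and Bmal1, 0.89 for Nr1d1 and Per2 and 0.87 for Bmal1 and Per2. Without Saline 1 the same values were 0.80, 0.88 and 0.98 over 5 arrays. The second Bmal1 probe set, AF015953_at, ran against Nr1d1 M25804_at (r = -0.91) and against Per2 (r = -0.78). The second Nr1d1 probe set, M25804_g_at, did not follow Bmal1 AB012600_s_at (r = -0.18) and followed Per2 only weakly (r = 0.24). The common course thus held for 1 of the 2 Bmal1 readings and 1 of the 2 Nr1d1 readings. These correlations describe 6 arrays that were normalized together and that may, by the labels, share pooled tissue within a group.

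**Figure D3:**
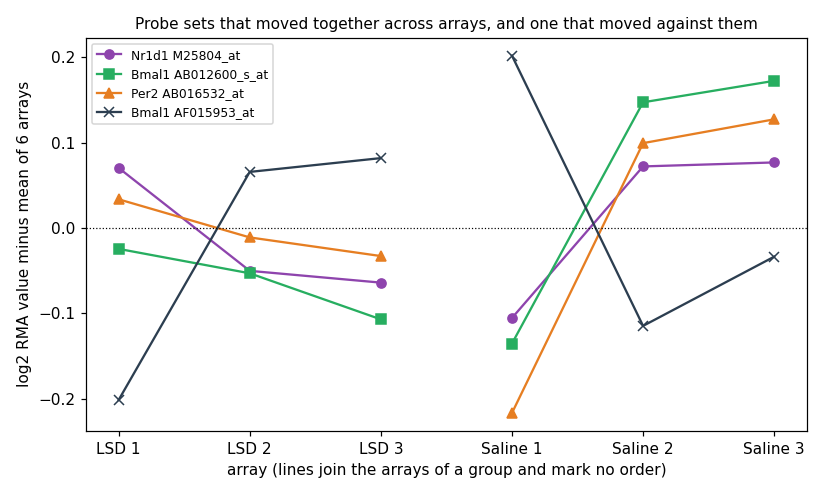
Deviation of each probe set from its mean over the 6 arrays (vertical axis, log2 units) on the LSD arrays (left) and the Saline arrays (right). Nr1d1 M25804_at, Bmal1 AB012600_s_at and Per2 AB016532_at are lowest on Saline 1 and highest on Saline 3, while the second Bmal1 probe set, AF015953_at, is highest on Saline 1.

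The probe sets whose course over the arrays was most like that of Dbp J03179_g_at, among 3633 with a level above the median, were Rpl21 (r = 0.98), a large-subunit ribosomal protein, Hmox2 J05405mRNA_s_at (r = 0.98), a haem oxygenase, Pet100 (r = 0.98), an assembly factor of cytochrome c oxidase, Lsamp (r = 0.97), a neuronal adhesion protein, and the second probe set of Rpl21 (r = 0.97). In all, 39 probe sets exceeded r = 0.9 over these 6 arrays. After the group means were subtracted, the leading ones were others, namely Dpy19l1, Alox15, Rcn2, Foxk2 and Flot1 (r = 0.96 to 1.00), and 20 exceeded 0.9. The Dbp probe set hardly varied over the LSD arrays (SD 0.005, against 0.09 in Saline), so this second r rests mainly on the Saline arrays. None of the clock genes described here stood in either list of 5. Nr1d2 followed this Dbp probe set at r = 0.85 over the 6 arrays, and at r = 0.42 after the group means were subtracted.

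Among the other genes around the loop, taken with the brightest probe set per gene, none passed the adjusted p of 0.05, where 0.0211% of the 4736 genes passed (1 gene), 3.63% stood at an unadjusted p under 0.05 and 51.7% read higher in LSD. The E-box activators and their kin were listed under 9 symbols, which include older names of the same genes. Of these, 4 genes were measured, 2 higher and 2 lower. Usf2, a factor that binds the E-box letters too, differed by -0.14 ± 0.08 log2 units with no overlap, while Usf1 (0.05 ± 0.09) and Arnt (0.01 ± 0.15, and -0.09 in its second probe set), a bHLH-PAS partner protein related to BMAL1, overlapped. Of the 8 genes listed as core repressors, a list that leaves out Bhlhe40 and Bhlhe41, only Per2 and Timeless were measured. Timeless differed by 0.07 ± 0.13 in a dim probe set (percentile 15.9 of level). Rorb, a receptor that activates through the RORE where the REV-ERBs repress, differed by 0.02 ± 0.11.

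The kinases, phosphatases and ubiquitin ligases that set the stability of clock proteins gave 6 genes higher and 8 lower of 14 measured. Gsk3b, a kinase that acts on REV-ERBα, differed by 0.28 ± 0.12 log2 units. Prkaa1, a subunit of AMP-activated kinase, differed by 0.25 ± 0.11 in a dim probe set (percentile 9.79 of level). The protein phosphatase 1 subunits Ppp1cc (-0.27 ± 0.11) and Ppp1cb (-0.23 ± 0.11) went the other way. In these brightest probe sets all 4 genes overlapped between the groups, with unadjusted p values of 0.041 for Ppp1cc, 0.048 for Prkaa1, 0.048 for Gsk3b and 0.066 for Ppp1cb in limma. The dimmer probe set of Ppp1cb, S78218_g_at, differed by -0.46 ± 0.17 with no overlap, and that of Gsk3b, X53428cds_s_at, by -0.07 ± 0.15, against the sign of the brighter one.

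Downstream of the PAR bZIP factors, 12 of 17 listed targets were measured, all known mainly from liver, kidney or barrier tissues. Of these targets, 3 read higher and 9 lower in LSD, with a median of -0.09 log2 units against 0.00563 over all genes. None stood at an unadjusted p under 0.05 in limma, and any tie to the level of Dbp was not tested. Alb, serum albumin, differed by -0.18 ± 0.09 with no overlap in its brightest probe set, but its 4 probe sets disagreed: rc_AA860062_at differed by 0.14 ± 0.09 with no overlap in the opposite direction, rc_AA860062_g_at by 0.16 ± 0.12 and rc_AA866237_s_at by -0.32 ± 0.40. Abcb1b, a drug efflux pump (-0.27 ± 0.20), Ppara, a fatty acid receptor (-0.14 ± 0.12), and Cyp2b2, a drug-metabolizing cytochrome (-0.15 ± 0.12, and 0.04 in its second probe set), overlapped. The Abcb1b probe set was dim (percentile 14.4 of level). It read 4.13 on Saline 1, against 3.56 and 3.31 on the other Saline arrays and 3.29 to 3.59 in LSD. Many of these genes have their main expression outside the brain, and the lower choroid plexus and striatal marker levels given above moved the same way; their part in this median was not tested.

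Beside the DEC proteins, Id1, an inhibitor of bHLH factors, differed by 0.22 ± 0.10 log2 units with no overlap, whereas the bHLH repressors Hes5 (-0.11 ± 0.08, no overlap) and Hes1 (-0.08 ± 0.09) lay lower and Id2 at 0.07 ± 0.13. The second probe set of Hes1, D13417_g_at, differed by -0.21 ± 0.08 with no overlap, while those of Id1 (0.13 ± 0.09) and Hes5 (-0.14 ± 0.09) overlapped. Of the genes that light or cAMP induces in the clock, 6 of 11 read higher. Arc, a synaptic immediate-early gene, differed by 0.23 ± 0.08 with no overlap, Dusp1, a MAP kinase phosphatase, by 0.15 ± 0.08 with no overlap, Junb by 0.19 ± 0.12 and Crem, a CRE-binding factor, by -0.13 ± 0.10. Groups without overlap, all higher in LSD, were seen in 3 of these 11 genes, against 10.3% of all genes in either direction and 6.97% with LSD higher. The third of them was Fos, the classical activity marker, at 0.07 ± 0.07, named here after its values were seen. Its other 2 probe sets differed by -0.02 ± 0.09 and -0.20 ± 0.23 with overlap, and those of Dusp1 by -0.03 ± 0.13 and 0.18 ± 0.10 with overlap. The rest of the list overlapped between the groups in the brightest probe sets. Egr1 (-0.09, and -0.15 to 0.04 in its other probe sets), Nr4a1 (-0.06, and 0.04 in its second probe set), Egr3 (-0.01) and Atf3 (-0.01) read lower. Creb1 (0.11) and Vgf (0.00077) read higher.

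Of the glucocorticoid-responsive genes, listed because Per2 responds to this hormone, 8 of 12 read higher with a median of 0.05 log2 units. Dusp1 counted here too, and beside it Nr3c1, the glucocorticoid receptor, stood at 0.16 ± 0.09. Nfkbia, an inhibitor of NF-κB, stood at -0.17 ± 0.09 with no overlap and Klf9, which is itself induced by glucocorticoids, at -0.22 ± 0.12. The second probe set of Klf9, D12769_at, differed by -0.60 ± 0.12 with no overlap (unadjusted p 0.0012 and adjusted p 0.348 in limma). That of Nfkbia, X63594cds_g_at, differed by -0.47 ± 0.19 with no overlap. It read 5.72 on Saline 1, against 5.01 and 4.98 on the other Saline arrays and 4.61 to 4.87 in LSD. The C/EBP and ATF bZIP genes gave 4 of 7 higher, led by Cebpa at 0.17 ± 0.10, with Atf2 at 0.08 ± 0.11, Cebpd at 0.05 ± 0.09 (0.17 and -0.02 in its other probe sets) and Batf3 at -0.05 ± 0.11. Of the genes of haem metabolism, haem being the ligand of the REV-ERBs, 4 of 5 read higher, with Ppox at 0.16 ± 0.11, Hmox1 at 0.11 ± 0.11, Hmox2 at 0.08 ± 0.09 (0.24 ± 0.09 with no overlap in J05405mRNA_s_at) and Alas1, the rate-limiting enzyme of haem synthesis, at 0.08 ± 0.09.

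**Figure D4:**
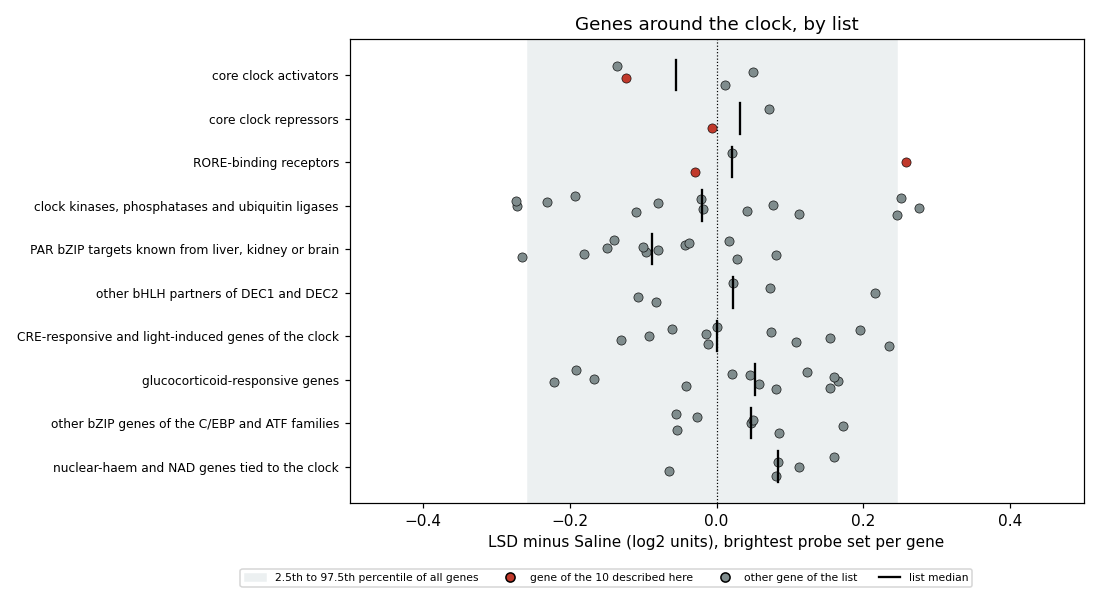
LSD minus Saline difference in log2 units of single genes (points, brightest probe set per gene) in the 10 lists around the clock, with the median of each list (vertical line). Shading spans the 2.5th to 97.5th percentile of all 4736 genes, -0.26 to 0.25, and red points are genes of the set described here. The list of PAR bZIP targets has the lowest median, -0.09, and the list of haem genes the highest, 0.08.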

How the data were processed

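RNA of 3 LSD and 3 Saline samples was hybridised to Affymetrix rat arrays. The deposited log2 values are RMA values that the authors computed with affy. RMA subtracts background, gives all arrays 1 distribution and combines the probes of a probe set, and it compresses differences of dim probe sets. Detection calls were not used here, and the number of arrays limits the precision. Groups were taken from the sample titles. From 8799 probe sets, 59 controls were left out. Platform annotation gave 7006 of the remaining 8740 probe sets 1 gene symbol, 308 several and 1426 none, and 6985 were matched to RefSeq (GRCr8).

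All 8740 probe sets were fitted as LSD minus Saline without covariates by lmFit and eBayes (limma 3.58.1, R 4.3.3), with Benjamini-Hochberg adjustment over all of them and a threshold of 0.05, two-sided. An exact permutation test of 3 arrays against 3 cannot go below p = 0.1. Gene lists used the brightest probe set of each of 4736 genes, fitted separately. Each probe set of the genes described was named, at most 4 genes of lowest unadjusted p per list, and the 5 probe sets most correlated with Dbp on each measure. The measured genes that light or cAMP induces were all named, a choice made after their values were seen. The genes described and the lists were chosen with earlier results of these data known. The fit was tested on simulated data. Alternatives were other normalizations, a filter on dim probe sets, other variance settings, weighted arrays, a block on replicate number, other summaries per gene and leaving out each array. Promoter windows and their coordinates are RefSeq's and were searched for exact motif letters.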

Additional observations from a re-analysis of the deposited data

How the results depend on the processing

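None of the 14 clock probe sets passed the threshold under any of the 15 alternatives run, and their lowest adjusted p in limma ran from 0.127 with array weights to 0.999 without LSD replicate 2. Under the filter on level, 10 of the 14 were left and the list of core repressors had no value. Both Dbp probe sets and Nr1d2 kept their direction under each alternative run on them, and no gene list had a gene past the threshold under any. Dim probe sets such as those of Per2 and the second one of Bmal1 limit what could be seen. The count of probe sets past the threshold among all those tested was 6. It was 16 among the probe sets above the median level, 20 with an intensity trend and robust prior, 42 with array weights, 1 with the brightest probe set per gene, and 0 to 3 when 1 array was left out (3 without Saline replicate 1, otherwise 0). With array weights the differences of Hlf S79820_at (0.027), Bmal1 AF015953_at (0.085) and Bhlhe40 AF009330_at (0.018) turned positive. Leaving out 1 array moved Tef S58745_at between -0.044 and 0.086, Hlf S79820_at between -0.087 and 0.0017, Nr1d1 M25804_at between -0.089 and 0.0021, Bmal1 AF015953_at between -0.10 and 0.056, Per2 AB016532_at between -0.12 and 0.055 and Bhlhe40 AF009330_at between -0.078 and 0.034. The cause of these changes was not tested. The r of the Nr1d1, Bmal1 and Per2 probe sets without Saline 1 was added after the data were seen.

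With the replicate number as a block, 0 probe sets passed the threshold and 262 stood at an unadjusted p under 0.05, with 3 of the 14 among them. Samples with the same number did not deviate together in every pair (r = -0.02, -0.23 and 0.18 for numbers 1, 2 and 3). Only LSD 3 correlated best with its own number. With deviations from the means of 3 arrays per group, these values cannot tell whether the number marks a pairing.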
